A study of Homo sapiens with 16 samples.

Results

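The cytosolic DNA sensing genes followed here are CGAS, STING1, TBK1, IRF3, IFI16, TREX1, SAMHD1 and ENPP1. They were named by their roles in the pathway and make up 8 of the 59428 genes in the count table. All 8 were found in the table, and 7 had at least 1 count. RNA was measured in 2 lines of serous ovarian carcinoma cells, OVCAR3 and UWB1.289, as read counts per gene from 16 QuantSeq libraries, which read the 3' ends of polyadenylated RNA. OVCAR3 is BRCA1 wild-type and UWB1.289 is BRCA1 mutated. OVCAR3 received 7.5 µM of the PARP inhibitor olaparib and UWB1.289 received 3.5 µM, in each case for 96 h and dissolved in DMSO, and control cells of both lines received DMSO alone. The treatment was repeated 4 times, which gives 4 libraries in each of the 4 groups. Each BRCA1 state is represented by 1 line, the lines grew in different media and the olaparib doses differ, so effects of the line, its BRCA1 state, the dose or the medium cannot be told apart. The p-values measure the spread between repeats of the same line.

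In the cGAS-STING pathway, the enzyme cGAS binds double-stranded DNA in the cytosol and makes the cyclic dinucleotide cGAMP. cGAMP binds the adaptor STING, which recruits the kinase TBK1, and TBK1 phosphorylates the transcription factor IRF3, which then switches on type I interferon and other antiviral genes. IFI16 is a further DNA sensor that acts together with STING. TREX1 degrades cytosolic DNA, SAMHD1 is a dNTP hydrolase that also acts at stalled replication forks, and ENPP1 hydrolyses extracellular cGAMP, and all of them limit the signal. Inhibition of PARP traps PARP on DNA and leaves DNA damage, which is why this pathway is of interest in homologous recombination deficient tumor cells.

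Total counts ranged from 5599571 to 7730228 per library with a median of 6413979.5. Levels are given as counts scaled to library size (CPM, with TMM factors over all 16 libraries) as mean ± SD, n = 4 libraries. 3 counts in a library were taken as the floor. Of 11 carcinoma and epithelial markers, 11 lay above the floor in both OVCAR3 groups and 10 in both UWB1.289 groups, where WT1 had 0 to 3 counts in every library. The carcinoma markers summed to 4260 to 4520 CPM in OVCAR3 with DMSO and 2750 to 2980 CPM with olaparib, and to 7550 to 8150 and 5940 to 7260 CPM in UWB1.289. Of 14 leukocyte, endothelial and fibroblast markers, 4 and 5 lay above the floor in OVCAR3 with DMSO and with olaparib, and 7 and 9 in UWB1.289. Their summed level was 25.8 to 33.8 and 35.7 to 43.9 CPM in OVCAR3, and 18.4 to 25.8 and 28.6 to 35.1 CPM in UWB1.289. Among the defining markers, CD3E of T cells had 0 counts in every group but OVCAR3 with DMSO, and CSF1R of macrophages was at or under the floor in all groups. The monocyte marker CD14 had 16 to 31 counts in UWB1.289 with DMSO and 35 to 57 with olaparib (log2 fold change 1.28, edgeR adjusted p = 0.00374, SE 0.275), so it rose in the same comparison as SAMHD1 and IFI16, and had at most 7 counts in OVCAR3. CD68 had 2 to 6 and 6 to 16 counts in UWB1.289, too few for the test. The leukocyte marker PTPRC had 32 to 48 counts in UWB1.289 with DMSO and 25 to 69 with olaparib, against at most 3 in OVCAR3. The endothelial markers PECAM1 and CDH5 had 16 to 36 and 11 to 39 counts in UWB1.289, against at most 8 and 1 in OVCAR3. The myeloid markers LYZ and ITGAM had at most 3 and 4 counts in any library. COL1A1 of fibroblasts made up most of the OVCAR3 sum, at 24.3 ± 4.12 CPM with DMSO and 36.1 ± 3.87 CPM with olaparib. The part of these markers in the results was not tested.

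The clearest changes under olaparib were in UWB1.289, where SAMHD1 rose 3.3-fold and IFI16 rose 3.56-fold. In OVCAR3 olaparib raised IRF3 1.53-fold, STING1 1.5-fold and SAMHD1 1.33-fold. CGAS was counted only in UWB1.289 above the floor and did not pass the test there between olaparib and DMSO. A gene passed when the adjusted p of edgeR's quasi-likelihood test, corrected over all genes tested in the comparison, was below 0.1. In OVCAR3, 3 of the 5 members tested passed as higher and 0 as lower, where 15.5% of all 13031 genes tested passed as higher and 16% as lower. In UWB1.289, 2 of the 7 members tested passed as higher and 0 as lower, against 7.77% and 6.1% of 12748 genes. Of these members 0 in OVCAR3 and 2 in UWB1.289 were past 2-fold, as were 3.07% and 1.98% of all genes tested. On the CPM scale the lowest olaparib library exceeded the highest DMSO library for 3 of 5 members in OVCAR3 and 3 of 7 in UWB1.289, and for 12.4% and 7.73% of all genes tested. The median log2 fold change of the members tested was 0.41 in OVCAR3 and 0.21 in UWB1.289, beside -0.01 over all genes tested in OVCAR3 and a value that rounds to 0 in UWB1.289. CGAS and IFI16 entered no test in OVCAR3 because their counts were under the filter on low counts, and TREX1 entered none.

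**Figure D1:**
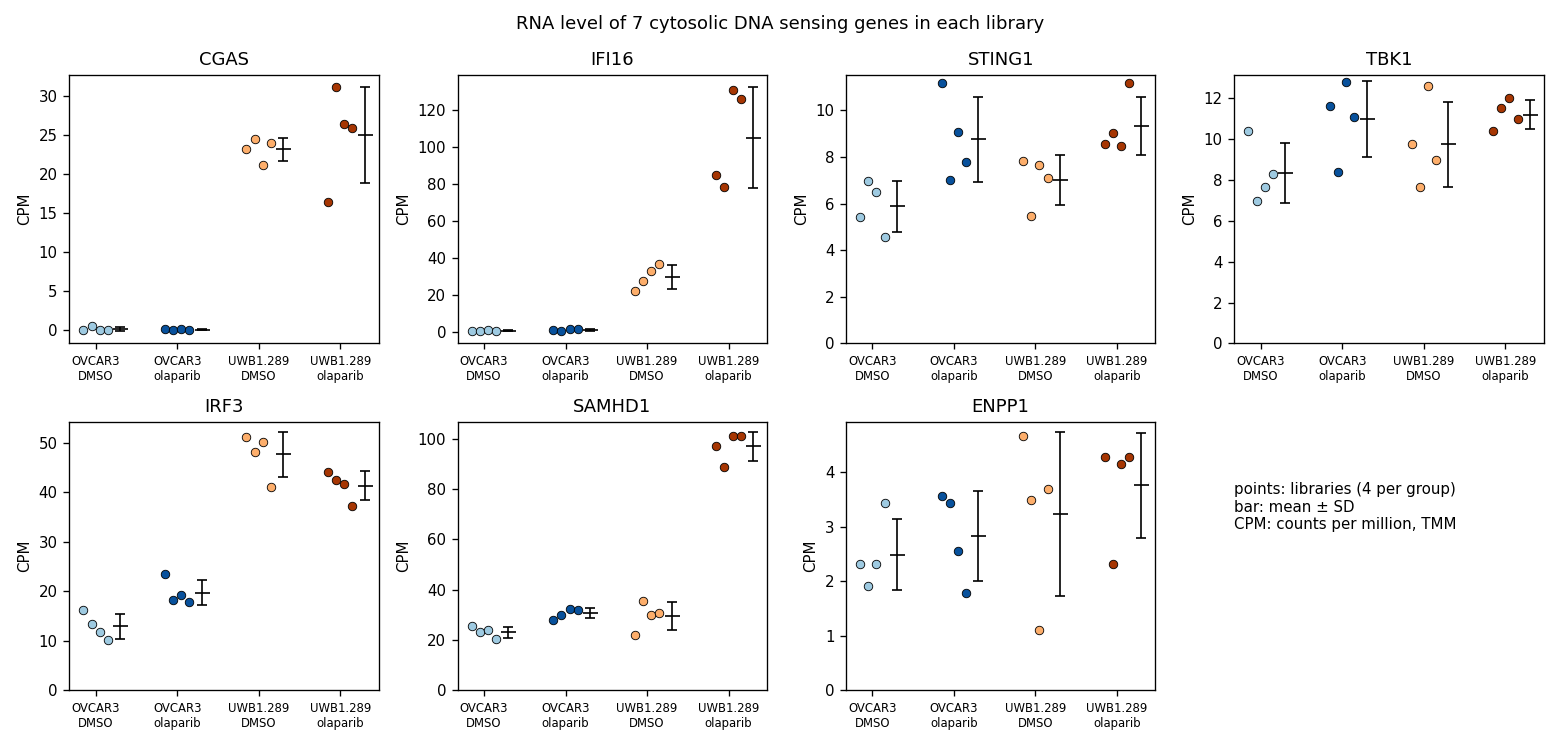
Level of each member in every library in CPM (vertical axes, linear) by group (horizontal axes), with 1 point per library and bars for mean and SD over 4 libraries. SAMHD1 and IFI16 stand far higher in the olaparib libraries of UWB1.289, with means of 97 and 105 CPM, than in its DMSO libraries, with means of 29.5 CPM for each gene.

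Because SAMHD1 and IFI16 moved together in UWB1.289, the reference sequence just upstream of their start sites is shown. RefSeq promoter windows (GRCh38.p14) were found for 5 of the 8 members and gave 6 windows, among them 1 for SAMHD1 and 2 for IFI16. Printed, 5′ to 3′ on the strand of the gene, is the part of the 250 bases before each start site that precedes the first base placed in an exon of the gene by GENCODE 44. The IFI16 windows lie inside the span of the gene, upstream of a start that RefSeq annotates, and the SAMHD1 stretch lies upstream of the gene. Capitals mark GAAA on either strand, the half-site of the element that interferon regulatory factors bind, so that TTTC is the half-site on the opposite strand. The half-site was chosen after the windows had been read.
SAMHD1, chr20:36951894-36951958, reverse strand: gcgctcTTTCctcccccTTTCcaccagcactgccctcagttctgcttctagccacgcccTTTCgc
IFI16 upstream start, chr1:159008741-159008990, forward strand: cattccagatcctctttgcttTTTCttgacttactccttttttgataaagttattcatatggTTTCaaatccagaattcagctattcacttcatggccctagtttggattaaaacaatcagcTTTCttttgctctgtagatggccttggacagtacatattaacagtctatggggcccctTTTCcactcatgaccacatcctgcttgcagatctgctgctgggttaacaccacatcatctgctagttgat
IFI16 downstream start, chr1:159009657-159009891, forward strand: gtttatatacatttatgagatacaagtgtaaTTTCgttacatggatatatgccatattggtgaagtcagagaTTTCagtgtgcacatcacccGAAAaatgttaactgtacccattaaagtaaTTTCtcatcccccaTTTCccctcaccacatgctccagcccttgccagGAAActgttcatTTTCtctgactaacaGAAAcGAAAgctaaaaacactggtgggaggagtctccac
The full 250 bases held 3 half-sites for SAMHD1, 4 for the upstream IFI16 start and 10 for the downstream one, where 9 lie in the printed part. The windows of TREX1, ENPP1 and TBK1 held 2, 1 and 0. Over 35116 RefSeq promoters the median was 2, at least 3 half-sites stood in 43.6% of the windows, at least 4 in 28.5% and at least 10 in 0.427%. 2 complete elements were also searched on both strands over the 300 bases from 250 before to 50 after the start, the core of the interferon-stimulated response element, which is a pair of the half-sites in the same direction with any 2 bases between them, and the STAT element TTCNNNGAA. They occur in 3.57% and 7.66% of all promoters, and 0 of the 6 member windows held either. These are matches of letters and say nothing of binding.

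Of the sensors, CGAS (ENSG00000164430, hg38 chromosome 6, 73413515 to 73452297, reverse strand) separated the lines. In OVCAR3 it had 0, 3, 0 and 0 counts in the DMSO libraries and 1, 0, 1 and 0 in the olaparib libraries. In UWB1.289 it had 154, 147, 133 and 182 counts with DMSO and 100, 176, 165 and 170 with olaparib. Every OVCAR3 library was at or under the floor and every UWB1.289 library had at least 100 counts. The level in UWB1.289 was 23.2 ± 1.45 CPM with DMSO and 25 ± 6.18 CPM with olaparib. Set against the floor of 3 counts per library, the DMSO level of CGAS in UWB1.289 was at least 49.3-fold higher than that in OVCAR3, and the olaparib level at least 56.6-fold higher. CGAS entered the tests between the lines only through UWB1.289, so no p is given for this difference. Within UWB1.289 the log2 fold change under olaparib was 0.11 (SE 0.152, 95% interval -0.21 to 0.43, edgeR adjusted p = 0.72), and the 4 olaparib libraries lay on both sides of the DMSO libraries. No effect of olaparib on CGAS can be given for OVCAR3 at this depth. CGAS shares 180 exonic bases, 4.31% of its own, with DDX43 on the opposite strand, and DDX43 had 0 counts in OVCAR3 and 21 to 53 in UWB1.289. DDX43 spans 73394828 to 73417566, so the genes overlap at their 3' ends, which these libraries read. Whether reads of one gene were counted for the other was not tested.

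IFI16 (ENSG00000163565, chromosome 1, 158999968 to 159055155, forward strand) was the member with the largest rise. In UWB1.289 the DMSO libraries had 146, 163, 205 and 276 counts and the olaparib libraries 514, 440, 819 and 823. The groups did not overlap, and the olaparib libraries split into a pair at 84.7 and 78.1 CPM and a pair at 131 and 126 CPM. The mean went from 29.5 ± 6.31 to 105 ± 27.4 CPM, a log2 fold change of 1.83 (SE 0.161, 95% interval 1.5 to 2.16, edgeR adjusted p = 2.69e-08), the 75th largest rise of the 12748 genes tested. In OVCAR3 the DMSO libraries had 1, 2, 5 and 3 counts and the olaparib libraries 5, 3, 9 and 11. These counts are near the floor and overlap, and without the filter on low counts the log2 fold change was 1.23 (edgeR adjusted p = 0.293, SE 0.695). Summed over the 4 DMSO libraries, the IFI16 counts came to 11 for OVCAR3 against 790 for UWB1.289, and over the olaparib libraries to 28 against 2596. It entered the tests between the lines only through UWB1.289, so these sums are given without a p. CGAS and IFI16 thus both had at least 100 counts in every UWB1.289 library and at most 11 in any OVCAR3 library.

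STING1 (ENSG00000184584, chromosome 5, 139475533 to 139482935, reverse strand), which encodes the adaptor, had 33, 40, 45 and 32 counts in OVCAR3 with DMSO and 72, 45, 64 and 57 with olaparib. On the CPM scale the groups did not overlap, but the highest DMSO library, at 6.99, and the lowest olaparib library, at 7.01, all but touched. The mean went from 5.88 ± 1.08 to 8.76 ± 1.82 CPM, a log2 fold change of 0.58 (SE 0.212, 95% interval 0.14 to 1.02, edgeR adjusted p = 0.051). This call was lost in 3 of the 8 fits that left out 1 library, those without DMSO replicate 1, DMSO replicate 4 or olaparib replicate 1, over which the adjusted p reached 0.174. In UWB1.289 the counts were 52, 33, 48 and 54 with DMSO and 52, 51, 53 and 73 with olaparib. As CPM these were 7.82, 5.49, 7.64 and 7.11 against 8.57, 9.05, 8.48 and 11.2, so every olaparib library was above every DMSO library, but the log2 fold change of 0.41 did not pass (SE 0.192, 95% interval 0.01 to 0.81, edgeR adjusted p = 0.204). Between the lines STING1 did not pass with either treatment, with log2 fold changes of UWB1.289 over OVCAR3 of 0.26 (95% interval -0.19 to 0.71) with DMSO and 0.08 (-0.33 to 0.49) with olaparib. At 32 to 73 counts per library counting error alone gives a coefficient of variation of 16.3% in OVCAR3 with DMSO, where the libraries varied by 18.4%.

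TBK1 (ENSG00000183735, chromosome 12, 64452090 to 64502114, forward strand), the kinase that STING recruits, had 63, 40, 53 and 58 counts in OVCAR3 with DMSO and 75, 54, 90 and 81 with olaparib. The groups overlapped, and the log2 fold change was 0.40 (SE 0.186, 95% interval 0.01 to 0.79, edgeR adjusted p = 0.126). It passed only in the fits without DMSO replicate 1 or without olaparib replicate 2 among the 8 that left out 1 library, with a lowest adjusted p of 0.0702. In UWB1.289 the counts were 65, 46, 79 and 68 with DMSO and 63, 65, 75 and 72 with olaparib. The log2 fold change there was 0.21 (SE 0.178, 95% interval -0.16 to 0.58, edgeR adjusted p = 0.527). The levels of the 4 groups lay between 8.33 ± 1.47 and 11.2 ± 0.7 CPM, and neighbours in that order did not differ beyond their spread.

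IRF3 (ENSG00000126456, chromosome 19, 49659569 to 49665875, reverse strand), the transcription factor of the pathway, moved in OVCAR3. Its counts there were 98, 77, 82 and 71 with DMSO and 151, 117, 135 and 131 with olaparib, and the groups did not overlap. The mean went from 12.9 ± 2.55 to 19.7 ± 2.55 CPM, a log2 fold change of 0.62 (SE 0.158, 95% interval 0.29 to 0.95, edgeR adjusted p = 0.00698). In UWB1.289 the counts were 340, 289, 315 and 312 with DMSO and 268, 239, 260 and 243 with olaparib, with means of 47.6 ± 4.53 and 41.3 ± 2.98 CPM. The log2 fold change of -0.20 did not pass (SE 0.105, 95% interval -0.42 to 0.02, edgeR adjusted p = 0.261). The level was 3.7-fold higher in UWB1.289 than in OVCAR3 with DMSO (log2 fold change 1.89, edgeR adjusted p = 7.79e-14, SE 0.131) and 2.08-fold higher with olaparib (1.06, edgeR adjusted p = 3.67e-07, SE 0.123).

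IRF3 shares its start region with BCL2L12 on the opposite strand, which encodes a BCL2-family protein. The 2 genes share 734 exonic bases, 19.3% of those of IRF3, and the shared bases lie at least 5573 bases from the 3' end of IRF3 and 8041 from that of BCL2L12. BCL2L12 went from 37.7 ± 3.41 to 61.3 ± 6.01 CPM in OVCAR3 under olaparib (log2 fold change 0.71, edgeR adjusted p = 3.55e-05, SE 0.103) and was at 85.2 ± 8.2 and 83.8 ± 10 CPM in UWB1.289 (-0.02, edgeR adjusted p = 0.922). The neighbour therefore passed and did not pass in the same comparisons as IRF3. Whether reads of one were counted for the other was not tested, since the strand setting of the counting is not given in the sources used here.

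SAMHD1 (ENSG00000101347, chromosome 20, 36890229 to 36951893, reverse strand) was the member that passed under olaparib in both lines. In UWB1.289 the DMSO libraries had 145, 212, 188 and 235 counts and the olaparib libraries 589, 501, 631 and 662. Each olaparib library held more than any DMSO library. The mean went from 29.5 ± 5.63 to 97 ± 5.74 CPM, a log2 fold change of 1.72 (SE 0.117, 95% interval 1.48 to 1.96, edgeR adjusted p = 3.33e-10), the 86th largest rise of the 12748 genes tested. In OVCAR3 the counts were 154, 132, 165 and 141 with DMSO and 181, 193, 228 and 233 with olaparib, again without overlap. The mean there went from 23.1 ± 2.19 to 30.6 ± 1.96 CPM, a log2 fold change of 0.41 (SE 0.116, 95% interval 0.17 to 0.65, edgeR adjusted p = 0.0132). With DMSO the lines differed little, with a log2 fold change of UWB1.289 over OVCAR3 of 0.35 (edgeR adjusted p = 0.0188, SE 0.133) and overlapping libraries. With olaparib it was 1.65 (edgeR adjusted p = 3.58e-11, SE 0.0977) and the libraries did not overlap. SAMHD1 shares 1068 exonic bases, 9.86% of its own, with TLDC2 on the opposite strand. TLDC2 spans 36876121 to 36894235, so the genes overlap at their 3' ends, which these libraries read. TLDC2 had 3 to 18 counts in OVCAR3 and 0 to 2 in UWB1.289. Whether reads of one gene were counted for the other was not tested.

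TREX1 (ENSG00000213689, chromosome 3, 48465811 to 48467645, forward strand), the main DNA exonuclease of the cytosol, had 0 counts in all 16 libraries. All of its 1448 exonic bases, 100%, are also exonic bases of ATRIP (chromosome 3, 48446710 to 48467645) on the same strand, a gene for a partner of the checkpoint kinase ATR. How a read that falls there was counted depends on a setting that is not given in the sources used here, so the count of 0 is not read as a limit on TREX1 RNA. ATRIP had 104 to 114 counts in OVCAR3 with DMSO and 139 to 177 with olaparib, and the groups did not overlap (log2 fold change 0.43, edgeR adjusted p = 0.0257, SE 0.135). In UWB1.289 it had 88 to 134 and 70 to 105 counts (-0.12, edgeR adjusted p = 0.744). Whether the ATRIP counts include reads from the shared bases was not tested.

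**Figure D2:**
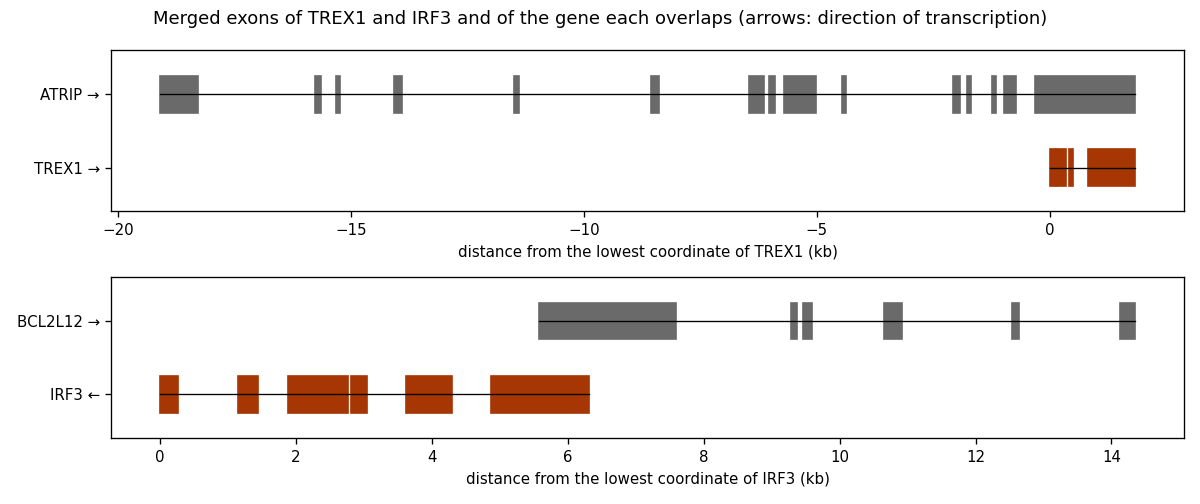
Exons of TREX1 and ATRIP (top) and of IRF3 and BCL2L12 (bottom) against the distance in kilobases from the lowest coordinate of TREX1 or IRF3 (horizontal axes), each gene on its own line with boxes for exons merged over transcripts. All 1448 exonic bases of TREX1 lie under exons of ATRIP, while IRF3 and BCL2L12 share 734 exonic bases at one edge.

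ENPP1 (ENSG00000197594, chromosome 6, 131808016 to 131895155, forward strand), the cGAMP hydrolase, had few counts in every group. They were 14, 11, 16 and 24 in OVCAR3 with DMSO and 23, 22, 18 and 13 with olaparib, and 31, 21, 7 and 28 in UWB1.289 with DMSO and 26, 13, 26 and 28 with olaparib. All 4 groups overlapped, with means from 2.49 ± 0.653 to 3.76 ± 0.969 CPM. The log2 fold change under olaparib was 0.16 in OVCAR3 (95% interval -0.52 to 0.84, edgeR adjusted p = 0.766) and 0.21 in UWB1.289 (95% interval -0.50 to 0.92, edgeR adjusted p = 0.768). These intervals are wide, so log2 fold changes of ENPP1 from -0.52 to 0.84 in OVCAR3 and from -0.50 to 0.92 in UWB1.289 are not excluded.

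To compare the olaparib effect between the lines, the difference of the log2 fold changes (UWB1.289 minus OVCAR3) was tested over all 16 libraries. Of the 7 members tested, 1 passed as higher and 1 as lower, beside 5.09% and 5.83% of 14243 genes. SAMHD1 rose more in UWB1.289, with a difference of 1.31 (SE 0.165, 95% interval 0.98 to 1.65, edgeR adjusted p = 2.59e-06). IRF3 went the other way, with a difference of -0.82 (SE 0.183, 95% interval -1.19 to -0.44, edgeR adjusted p = 0.0042), and BCL2L12 gave -0.73 (edgeR adjusted p = 0.00142, SE 0.146). The differences were -0.17 for STING1 (95% interval -0.75 to 0.41), -0.19 for TBK1 (-0.72 to 0.33) and 0.05 for ENPP1 (-0.96 to 1.06), none of which passed. CGAS entered this test too, but with OVCAR3 at the floor its interval ran from -1.90 to 3.23 (edgeR adjusted p = 0.836) and its fitted value is no measure of a difference. IFI16 had a difference of 0.60 with an interval of -0.91 to 2.12 (edgeR adjusted p = 0.722), so its rise was not shown to be larger in UWB1.289. The doses differed between the lines, so this is not a comparison at matched dose.

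**Figure D3:**
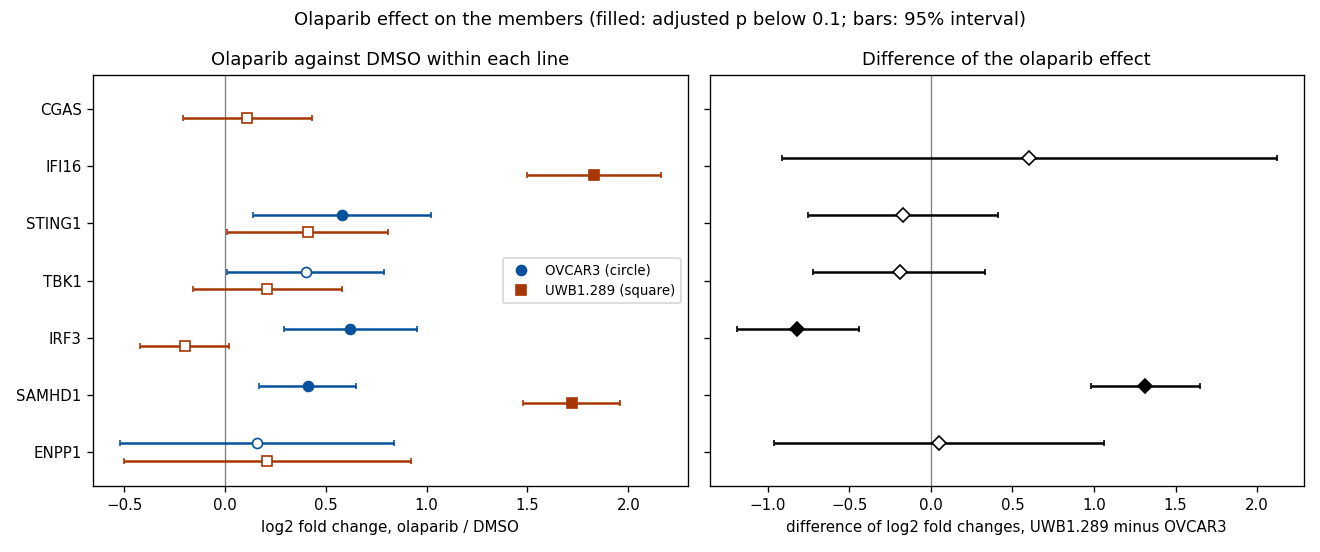
Olaparib effect on the members as log2 fold change over DMSO in each line (left, circles for OVCAR3 and squares for UWB1.289) and the difference between the lines (right), with bars for the 95% interval and filled symbols for an adjusted p below 0.1. Only SAMHD1, at 1.31, and IRF3, at -0.82, have filled symbols on the right, while CGAS, at the floor in OVCAR3, and TREX1 are not drawn there and the bar of IFI16 runs from -0.91 to 2.12.

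Between the lines, 4 of the 7 members tested passed as higher in UWB1.289 with DMSO and 0 as lower, where 39.8% of 13366 genes passed as higher and 40.1% as lower. With olaparib it was again 4 and 0 of 7, beside 38.4% and 38.1% of 13398 genes, and in both cases the genes were CGAS, IRF3, SAMHD1 and IFI16. CGAS and IFI16 passed the filter on low counts only through UWB1.289, so these counts carry no weight of their own. The UWB1.289 libraries lay above all OVCAR3 libraries for 3 of 7 members with DMSO and 4 of 7 with olaparib, beside 34.5% and 33.4% of all genes tested. These shares are to be read against a high background, since most genes differed between the lines. By line and treatment, the order of SAMHD1 levels from OVCAR3 with DMSO to UWB1.289 with olaparib placed 3 groups between 23.1 and 30.6 CPM and the last at 97 CPM.

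The other genes of the pathway were read from lists by role. Of 12 tested other DNA sensors and cofactors in OVCAR3, 3 rose and 3 fell, with a median log2 fold change of 0.03, where the shares over all genes were 15.5% higher and 16% lower. PRKDC, the catalytic subunit of the DNA-dependent protein kinase, rose by a log2 fold change of 0.38, and ZCCHC3, a cofactor of cGAS, fell by 0.55. PQBP1, a cofactor of cGAS for retroviral DNA, was at 0.36 and lost its call in 3 of the 8 fits that left out 1 library. In UWB1.289, where 7.77% of all genes were higher and 6.1% lower, 0 of 12 rose and 3 fell. XRCC5 of the Ku complex fell by 0.33 and the DNA-binding HMGB1 and HMGB2 by 0.28 and 0.27 on the log2 scale. The call of HMGB2 was lost in 5 of 8 such fits. XRCC5 also passed as lower in OVCAR3, with a log2 fold change of -0.21 (edgeR adjusted p = 0.0274, SE 0.0662).

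Of 19 regulators of STING traffic, turnover or signaling tested, 5 rose and 3 fell in OVCAR3, and 4 rose and 0 fell in UWB1.289. Over all genes 15.5% rose and 16% fell in OVCAR3, and 7.77% rose and 6.1% fell in UWB1.289, so 3 of 19 lower in OVCAR3 is at the background. IKBKE, a kinase related to TBK1, had 48 to 75 counts in OVCAR3 with DMSO and 118 to 181 with olaparib, a log2 fold change of 1.13 (edgeR adjusted p = 1.67e-05, SE 0.154). In UWB1.289 it had 29 to 53 and 49 to 74 counts and a log2 fold change of 0.60 (edgeR adjusted p = 0.0767, SE 0.21), a call that was lost in 6 of the 8 fits that left out 1 library. In OVCAR3 the ubiquitin ligase TRAF6 fell by 0.62 and RHBDF2, which helps STING leave the endoplasmic reticulum, rose by 0.56. RHBDF2 also passed as higher in UWB1.289, with a log2 fold change of 0.43 (edgeR adjusted p = 0.0325, SE 0.124). In UWB1.289 USP18, an interferon-induced protease for ISG15 conjugates, rose by a log2 fold change of 1.5 and the ubiquitin ligase TRIM56 by 0.50.

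Among other proteins that limit sensing of self nucleic acids, 1 of 7 tested rose in OVCAR3 and 0 fell, while 1 of 8 rose in UWB1.289 and 2 fell. Over all genes the shares were 15.5% and 16% in OVCAR3 and 7.77% and 6.1% in UWB1.289, so a single gene higher is near the background in each line. The gene that rose was RNASEH2B, a subunit of RNase H2, in OVCAR3 (log2 fold change 0.51, SE 0.145), and the RNA-editing enzyme ADAR in UWB1.289 (0.71, SE 0.0814). The lamin genes LMNB1 and LMNA fell by 0.45 and 0.31 in UWB1.289. Of the transporters and further hydrolases of cGAMP, 2 of 8 rose and 1 fell in OVCAR3, and 1 of 9 rose and 0 fell in UWB1.289, of which the single calls are again near those shares. SLC19A1, which imports cyclic dinucleotides, rose in both lines, by 0.47 (SE 0.129) in OVCAR3 and 0.67 (SE 0.148) in UWB1.289. The channel subunits LRRC8E and LRRC8D moved by 0.46 and -0.43 in OVCAR3, and the call of LRRC8E was lost in 5 of 8 fits that left out 1 library.

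Of the genes that IRF3 or interferon switches on, 6 of the 12 listed were tested in OVCAR3 and 10 in UWB1.289. All tested ones passed as higher, where the shares over all genes were 15.5% and 7.77%. Some of them, such as CXCL10 and CCL5 in UWB1.289, passed the filter on low counts only through the olaparib libraries and had to differ. RSAD2 in UWB1.289 and IFIT1 in OVCAR3, with DMSO libraries down to 4 and 7 counts, also entered through the olaparib libraries. The other 6 genes in OVCAR3 were too low to be tested, so the count is partly set by the filter. In OVCAR3 1 of the 6 tested, IFIT1, was past 2-fold and in UWB1.289 9 of the 10. The list was made with earlier results of these libraries known and is not independent evidence of its direction. IFNB1, the interferon that IRF3 is best known to induce, had 1 count over all 16 libraries. IFIT1 had 7 to 16 counts in OVCAR3 with DMSO and 14 to 36 with olaparib (log2 fold change 1.17, SE 0.34), and 27 to 47 against 526 to 574 in UWB1.289 (3.90, SE 0.142). ISG15, a ubiquitin-like protein, had 132 to 159 and 254 to 290 counts in OVCAR3, and 517 to 742 and 2447 to 2940 in UWB1.289. PMAIP1, which encodes the cell death protein NOXA, was at 0.95 in OVCAR3. RSAD2, which encodes viperin, had 4 to 15 counts in UWB1.289 with DMSO and 125 to 175 with olaparib. Its fitted log2 fold change of 3.80 rests on that low base and is a poor measure of size. The chemokine CXCL10 had 1 to 3 counts in UWB1.289 with DMSO and 86 to 110 with olaparib, so its fitted fold change is no measure of size. The difference between the lines passed as higher in UWB1.289 for 6 of the 10 tested and as lower for 0, beside 5.09% and 5.83% of all genes. Outside UWB1.289 with olaparib, CXCL10, CCL5, RSAD2 and OASL had at most 9, 4, 16 and 12 counts in a library. They entered this test mainly through the UWB1.289 olaparib libraries, so this count too is partly set by the filter.

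**Figure D4:**
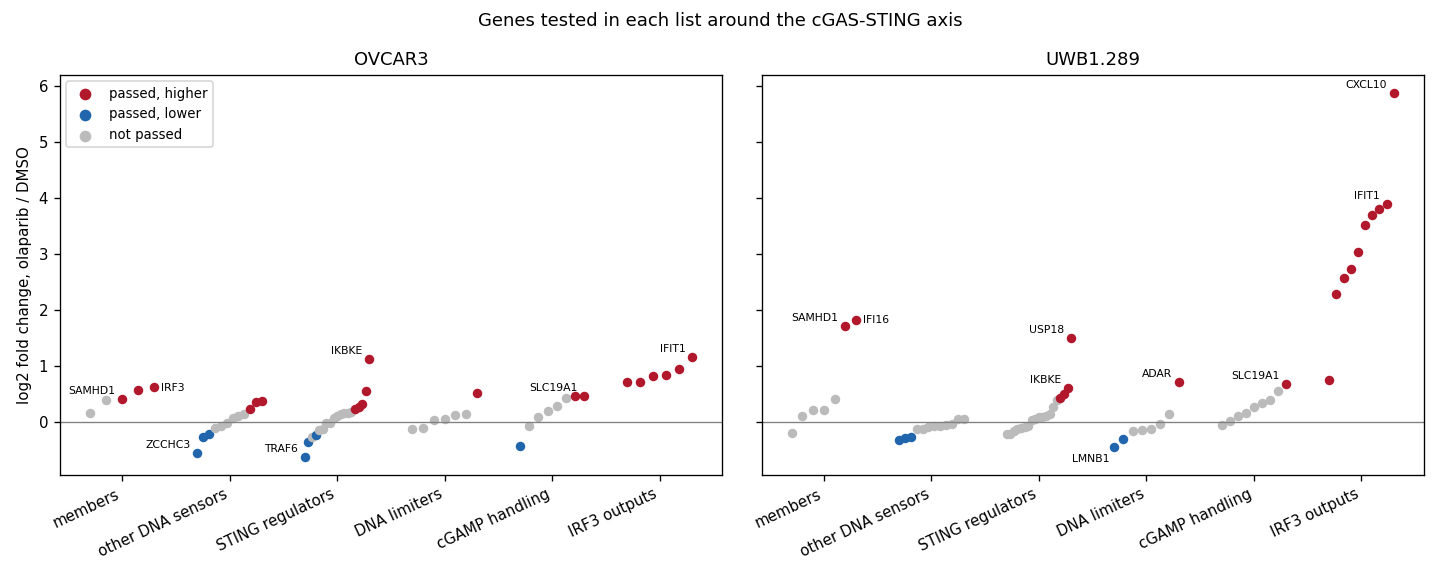
Log2 fold change under olaparib in OVCAR3 (left) and UWB1.289 (right) for each tested gene of the members and of 5 lists (horizontal axes), sorted within a list, with red for genes that passed as higher, blue for lower and grey for those that did not pass. The tested IRF3 output genes all lie above 0 in both panels while CXCL10, drawn at its fitted 5.88, had 1 to 3 counts with DMSO.

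The genes whose log2 CPM followed each member most closely over the 16 libraries were looked up among 14243 genes, as a description of libraries that share 2 lines and 2 treatments. SAMHD1 was followed by MX1 (Pearson r = 0.987) and IFIT2 (r = 0.975), both interferon-stimulated genes. IFI16 was followed by IGFL1 and EDN1 (r = 0.989 for each), CGAS by RBMS1 and SIRPA (r = 0.995 for each) and IRF3 by PTCHD1 (r = 0.982). For IFI16, CGAS and IRF3 the lines do not overlap, while for SAMHD1 the UWB1.289 olaparib libraries stand apart from the rest. STING1 was closest to TICAM1 (r = 0.848), the adaptor of Toll-like receptor 3, and ETV6 (r = 0.831), TBK1 to AARSD1 (r = 0.830) and FMNL1-DT (r = 0.824), and ENPP1 to KCNMB3 (r = 0.797) and MANEAL (r = 0.783). The last 3 members have few counts, which limits how closely any gene can follow them.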

How the data were processed

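RNA of the 16 libraries was prepared with the QuantSeq 3' kit. The authors used BBDuk for trimming of single-end reads, STAR 2.7.9a (2-pass) for alignment to hg38 and featureCounts 2.0.0 with GENCODE annotation for counting per gene. The deposited values are whole-number counts with no normalization. Settings for strand, multi-mapping and overlapping genes are not given in the sources used here. From these counts, edgeR 4.0.16 in R 4.3.3 (TMM, filterByExpr with a minimum count of 10, quasi-likelihood F test, Benjamini-Hochberg over all genes tested) was run for olaparib against DMSO within each line, UWB1.289 against OVCAR3 within each treatment, and the difference of the olaparib effects. Log2 CPM used a prior count of 2, and SEs follow from the F statistic. Coordinates and overlaps are from GENCODE 44, and promoters from RefSeq GRCh38.p14. Total counts of 5599571 to 7730228 limit genes near 10 counts. No pair of libraries within a group was identical (lowest chi-square per gene 2.89). DESeq2 1.42.0, its size factors, no filter, all libraries in 1 fit, a replicate block, other thresholds and leaving out each library were the alternatives. The members and lists were chosen with earlier results of these data known. Named are all members, up to 3 passing genes of each other list per olaparib comparison with the largest change, annotated genes that overlap a member and had counts, and for each member the 2 genes with the highest Pearson r. 1 gene that this rule names is not reported here.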

Additional observations from a re-analysis of the deposited data

Results flagged for a closer look

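The olaparib effect differed between the lines for 2 members, by a test of the difference itself over all 16 libraries. For SAMHD1 the difference of the log2 fold changes, UWB1.289 minus OVCAR3, was 1.31 (edgeR adjusted p = 2.59e-06), with SAMHD1 higher under olaparib in both lines. For IRF3 it was -0.82 (edgeR adjusted p = 0.0042), from a rise of 0.62 that passed in OVCAR3 and a value of -0.20 that did not pass in UWB1.289. ENPP1 in UWB1.289 with olaparib had 1 library, replicate 2, at a log2 CPM of 1.39, apart from the other 3 at 2.16 to 2.20, at a count of 13. This was the only such library in 26 checks of a member in a group.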

How the results depend on the processing

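DESeq2, its size factors, no filter on low counts, all 16 libraries in 1 fit and the replicate block kept the direction and the call of each member in every comparison where they gave a value. Requiring more than 2-fold besides the adjusted p took the members higher in OVCAR3 from 3 to 0, those higher in UWB1.289 with DMSO from 4 to 3 (SAMHD1 was lost) and the members lower in the difference of effects from 1 to 0. An adjusted p below 0.05 took the members higher in OVCAR3 from 3 to 2 (STING1 was lost) and changed no other count. Leaving out 1 library gave 2 to 4 members higher in OVCAR3, 2 in UWB1.289, 4 to 5 and 4 between the lines with DMSO and with olaparib, and 1 higher and 1 lower for the difference. The count of 5 came from ENPP1, which passed between the lines with DMSO in 1 of 8 such fits (lowest edgeR adjusted p = 0.0694). With all libraries its log2 fold change there was 0.37 (edgeR adjusted p = 0.344). Values that did not pass changed sign in some of these fits, with ranges of -0.01 to 0.27 for CGAS, -0.06 to 0.44 for ENPP1, -0.09 to 0.04 for BCL2L12 and -0.22 to 0.05 for ATRIP in UWB1.289, -0.28 to 0.00 for ATRIP between the lines with DMSO, -0.02 to 0.21 for STING1 and -0.09 to 0.10 for TBK1 between the lines with olaparib, and -0.23 to 0.27 for the difference of ENPP1, and the cause was not tested. The called values ranged from 1.6 to 1.81 for SAMHD1 and 1.70 to 1.95 for IFI16 in UWB1.289.

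Replicate numbers are shared between groups, but same-numbered libraries deviated together only weakly (r of 0.0248 to 0.103 in OVCAR3 and 0.0839 to 0.144 in UWB1.289) and some pairs in each line were at or under 0.1, so the numbers were not taken as pairs. As a hint from the data, every UWB1.289 DMSO library correlated best with the olaparib library of its own number, as did those of OVCAR3 other than replicate 1, while olaparib replicate 2 of UWB1.289 correlated best with DMSO replicate 1. With the replicate block 3 members passed as higher in OVCAR3 and 2 in UWB1.289, as without it, and over all genes 2105 rose and 2191 fell in OVCAR3 and 1269 and 1110 in UWB1.289, against 2022 and 2083 and 990 and 778. Depth limits CGAS and IFI16 in OVCAR3 and ENPP1 in all groups.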

Other observations

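ZBP1, a sensor of left-handed nucleic acids in the list of other DNA sensors, was singled out after its values were seen. It had 5, 6, 6 and 14 counts in OVCAR3 with DMSO and 1, 4, 0 and 3 with olaparib, and 0, 0, 0 and 8 in UWB1.289 with DMSO and 3, 12, 23 and 15 with olaparib. The counts were low, lower with olaparib in OVCAR3 and higher with it in most UWB1.289 libraries, and the difference of the olaparib effects passed (edgeR adjusted p = 0.00524), while its counts were under the filter on low counts in the test within each line. As ZBP1 was picked for these values, that p carries no weight of its own. Leaving out 1 library moved the fitted difference between 4.34 and 8.76. AIM2, the inflammasome sensor of DNA, had 1 count over all 16 libraries.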
